A study of Saccharomyces cerevisiae with 6 samples.

Results

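The silent mating-type cassettes HML and HMR, the active MAT locus and the recombination enhancer lie on chromosome III of Saccharomyces cerevisiae, a budding yeast. They were taken here as every 50 bp bin whose midpoint falls between 10001 and 16000 (HML), 28901 and 31500 (recombination enhancer), 197501 and 202500 (MAT) or 291001 and 297000 (HMR) in the R64 build. That gave 392 of the 241434 bins in each sample, and of the 6333 bins of chromosome III: 120 at HML, 52 at the recombination enhancer, 100 at MAT and 120 at HMR. By its title, the study concerns the histone deacetylase Rpd3 and the forkhead protein Fkh1 at replication origins and the ribosomal DNA. Anti-FLAG M2 chromatin immunoprecipitation was sequenced from 3 rpd3Δ samples (strain YHy17) and 3 WT samples (strain OAy1102). All 6 samples were grown at 23 °C and held in G1 for about 4 h with about 5 nM of the mating pheromone α-factor before cross-linking, and BAR1, whose product is a protease that breaks down α-factor, had 0 counts in every one of them. Neither the protein that carries the tag, nor the mating type, nor any other difference between the strains is given in the labels. They also do not say whether replicates were separate cultures, so the p-values describe the spread of these 6 samples alone, and that spread may be technical.

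Mating type in budding yeast is set by the genes present at MAT, where either the α genes (ALPHA1 and ALPHA2) or the a genes (A1 and A2) are expressed. HML and HMR hold unexpressed copies of the same genes, kept silent by Sir proteins that spread from flanking silencers called E and I, which are bound by Rap1, Abf1 and the origin recognition complex. In a mating-type switch the HO endonuclease cuts MAT and the break is repaired from one of the silent copies. The recombination enhancer on the left arm, to which Fkh1 and Mcm1 bind in a cells, directs a cells to choose HML. Sequence called X and Z1 is shared by the 3 cassettes, and W and Z2 are shared by HML and MAT only. The R64 reference carries the α genes at MAT as well as at HML and the a genes at HMR only, whereas α-factor arrests a cells. Reads from shared sequence cannot be assigned to 1 copy, and how the authors placed reads with several matches is not given in the sources used here.

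Counts summed over bins outside the rDNA were 2748464, 2443077 and 1856558 in the rpd3Δ samples and 2649260, 3713744 and 2004858 in the WT samples. The 4 loci held 0.207% to 0.252% of these counts in the rpd3Δ samples and 0.225% to 0.264% in the WT samples. RPD3 itself had 0.0983 ± 0.0214 times the genome mean in rpd3Δ and 0.854 ± 0.0956 times in WT (SD, n = 3 each), and was lower in each rpd3Δ sample than in any WT sample. Of the 392 bins, 304 were covered over their whole length in all 6 samples, 6 had 0 counts in at least 1 sample and 0 had 0 counts in all. Values are given as scaled counts per 50 bp bin: counts divided by the sample's effective library size, with the rDNA left out, and multiplied by the mean library size. Fold changes are rpd3Δ over WT on the log2 scale, and adjusted p-values are from edgeR's quasi-likelihood test, corrected by Benjamini-Hochberg over all windows of the same kind in the genome.

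The recombination enhancer carried by far more signal than the cassettes in both genotypes. It had 46.3, 38.5 and 30.2 scaled counts per bin in the rpd3Δ samples and 43.1, 41.3 and 32.5 in the WT samples. HML had 13.2, 11.6 and 11.2 in the rpd3Δ samples, against 15.0, 16.3 and 13.1 in the WT samples. At HMR the rpd3Δ samples had 12.8, 11.5 and 11.5 and the WT samples 14.1, 14.5 and 12.5. MAT had 9.97, 9.63 and 9.21 in the rpd3Δ samples and 10.3, 10.2 and 9.60 in the WT samples. Each of the 4 loci had at least 1 rpd3Δ sample above the lowest WT sample, so the groups overlapped at all of them (38.2% of windows of this size did not overlap).

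Relative to the median bin of the surrounding 20 kb, with the locus itself included, the recombination enhancer stood at 4.84 ± 1.22 in rpd3Δ and 4.49 ± 0.719 in WT. It had rank 2 and rank 8 among 2393 windows made of the 4 loci and 5 kb tiles of the genome. Its window of 52 bins lies around a peak and is shorter than the 100 bins of a tile, so this rank is not on equal terms with the tiles. HML stood at 1.86 ± 0.407 in rpd3Δ and 1.86 ± 0.121 in WT, at rank 111 and rank 137. HMR had 1.57 ± 0.146 and 1.58 ± 0.165 in rpd3Δ and WT, rank 223 and rank 246. MAT was close to its surroundings, at 1.16 ± 0.0210 in rpd3Δ and 1.20 ± 0.121 in WT, rank 868 and rank 763. All ± values are SD over 3 samples.

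**Figure D1:**
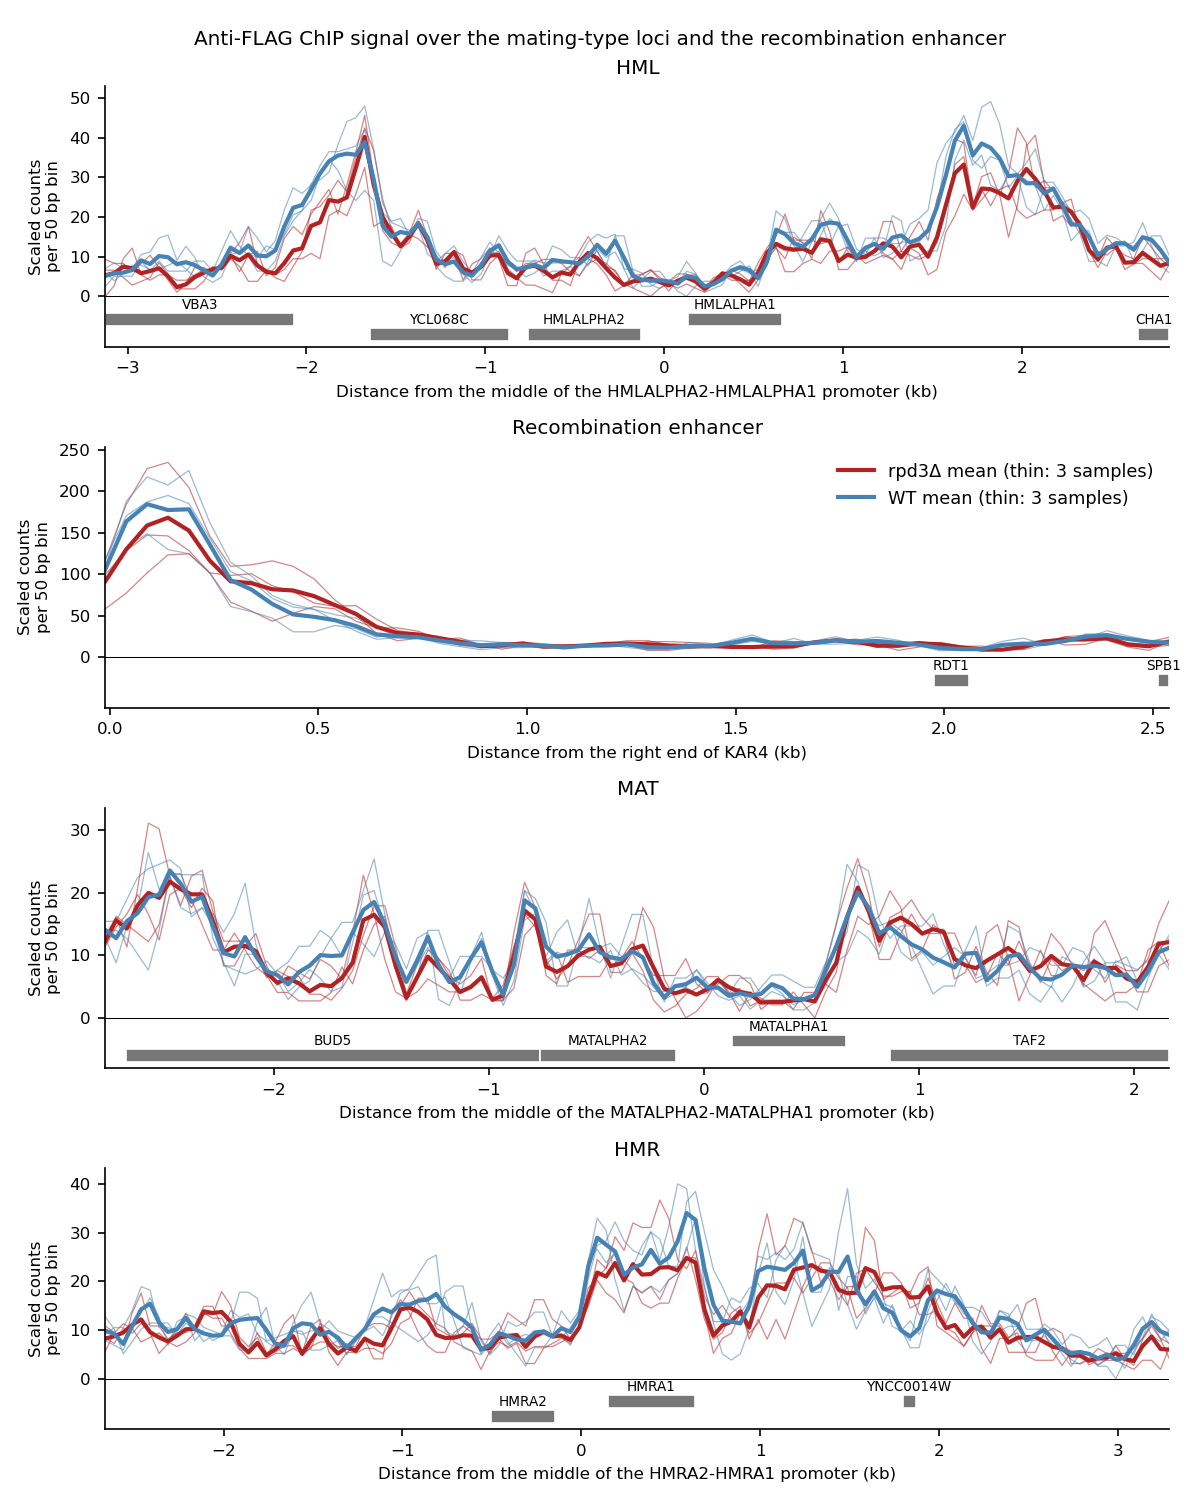
Scaled counts per 50 bp bin (y axis) over HML, the recombination enhancer, MAT and HMR against distance in kb from a gene landmark (x axis), with thick lines for the mean of 3 rpd3Δ (red) and 3 WT (blue) samples and thin lines for single samples; grey boxes are genes. The recombination enhancer has 1 peak beside KAR4, reaching 235 in an rpd3Δ sample, HML has a peak on each side of its cassette genes, and the highest bin in any sample is 40.1 at HMR and 31.1 at MAT.

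HML was the 1 locus of the 4 whose total passed the test between the genotypes. Its signal fell in rpd3Δ, with a fold change of -0.31 (SE 0.0875, edgeR adjusted p = 0.0110). It was called where 25.4% of the 2393 windows were called and 13.2% were called lower, so a call at this window size is common. HMR had -0.20 (SE 0.0795, edgeR adjusted p = 0.0647), MAT -0.06 (SE 0.0659, edgeR adjusted p = 0.516) and the recombination enhancer -0.02 (SE 0.122, edgeR adjusted p = 0.921). The call at HML was lost when rpd3Δ replicate 2 or 3 or WT replicate 1 or 2 was left out, with fold changes of -0.38 to -0.23 over all 6 omissions. Where it was lost, 410, 553, 369 and 368 of the 2393 windows were called, in that order, beside 608 with all samples. HMR was called without rpd3Δ replicate 1 (-0.26), without WT replicate 3 (-0.26) and by DESeq2 (-0.20, DESeq2 adjusted p = 0.0381). In these settings 647, 644 and 715 of the 2393 windows were called.

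The median bin of the 20 kb centred on each locus was taken with the bins of the locus left in, so it is not independent of the locus. Before scaling it is a small whole count and moves in coarse steps. At HML it was 6.56 ± 0.818 in rpd3Δ and 7.95 ± 0.408 in WT, a log2 ratio of -0.28. With that median as the scale of each sample HML had a fold change of -0.03 (edgeR adjusted p = 0.947), and part of that approach to 0 is built in. Around HMR the median was 7.64 ± 0.443 in rpd3Δ and 8.70 ± 0.258 in WT, a log2 ratio of -0.19, and on that scale HMR had -0.03 (edgeR adjusted p = 0.925). Around the recombination enhancer the log2 ratio was -0.12 and around MAT -0.01, where the median bin of all chromosome III had -0.02. The centre of HML lies 13.0 kb from the nearest chromosome end, that of HMR 22.6 kb, that of the recombination enhancer 30.2 kb and that of MAT 116.6 kb. Over all chromosomes but XII, which carries the rDNA, 5 kb tiles under 10 kb from an end had a median of -0.34 on the log2 scale and 64.8% of 54 were called lower. Tiles 10 to 30 kb from an end had -0.23, with 49.6% of 115 called lower, and tiles 30 kb or more from an end had a median of -0.0014, with 10.7% of 2015 called lower.

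The 5 kb tile left of HML, 5001 to 10000, had 4.00 in rpd3Δ and 6.49 in WT (-0.70, edgeR adjusted p = 2.08e-05). The tile from 35001 to 40000, right of the recombination enhancer, fell by a similar amount, with 9.83 in rpd3Δ and 16.0 in WT (-0.70, edgeR adjusted p = 2.97e-06). Between them, the tile from 20001 to 25000 had -0.19 (edgeR adjusted p = 0.127). Within a sample, HML over MAT was 1.32, 1.21 and 1.22 in rpd3Δ and 1.46, 1.60 and 1.37 in WT. HMR over MAT was 1.29, 1.19 and 1.25 in rpd3Δ and 1.36, 1.43 and 1.30 in WT. In both ratios every rpd3Δ sample was below every WT sample. Both had an exact permutation p of 0.1 with both sides counted, the smallest that 3 samples against 3 can give (0.35 adjusted over the 7 ratios compared here). The 3 ratios over MAT were chosen after the data were seen, so their p-values are descriptions and no conclusion is drawn from them. The recombination enhancer over MAT was 3.98 ± 0.684 in rpd3Δ and 3.87 ± 0.421 in WT (SD, n = 3, exact permutation p = 1).

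At HML the signal had a peak over each silencer-bearing interval and a trough over the cassette genes. The interval between VBA3 and YCL068C (11083 to 11502), which holds the HML-E silencer, had 26.8, 27.2 and 18.8 in the rpd3Δ samples and 35.7, 34.6 and 27.5 in the WT samples. Every rpd3Δ sample was below every WT sample, and the log2 fold change was -0.42 (SE 0.163), which did not pass the threshold over all intervals (edgeR adjusted p = 0.187). The interval between HMLALPHA1 and CHA1 (13810 to 15797), which holds HML-I, had 20.2, 15.6 and 16.0 in the rpd3Δ samples and 20.2, 23.8 and 18.6 in the WT samples. The groups overlapped there (-0.27, SE 0.175, edgeR adjusted p = 0.507). Over the local median the HML-E interval stood at 3.53 in rpd3Δ and 3.56 in WT, rank 213 and rank 241 of 6078 intergenic intervals, and the HML-I interval at 2.69 in rpd3Δ and 2.83 in WT, rank 405 and rank 388.

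The summit on the E side was the bin from 11451 to 11500, at the border of YCL068C, with 42.4, 45.6 and 32.5 in the rpd3Δ samples and 47.9, 42.1 and 26.7 in the WT samples. Its log2 fold change was 0.03 (SE 0.263, edgeR adjusted p = 0.984), and the genotypes overlapped. All rpd3Δ samples lay below all WT samples in 7 of the 24 tiles of HML (7.85% of tiles in the genome). The tiles 10251 to 10500 (-0.94, edgeR adjusted p = 0.139) and 12751 to 13000 (-0.87, edgeR adjusted p = 0.135) had the largest falls and did not pass. The slope facing VBA3 held the 1 tile that was called. The 250 bp tile from 11001 to 11250 had 13.4, 18.4 and 9.21 in the rpd3Δ samples and 23.1, 27.2 and 22.1 in the WT samples. All rpd3Δ samples lay below all WT samples, and the tile fell by 0.81 on the log2 scale (SE 0.214, edgeR adjusted p = 0.0352). VBA3 (9706 to 11082), which encodes a vacuolar transporter of basic amino acids, ends inside this tile. It had 4.82, 7.40 and 6.48 in the rpd3Δ samples and 7.93, 10.3 and 7.90 in the WT samples, again with no overlap, and fell by 0.50 (SE 0.150, edgeR adjusted p = 0.0325).

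The tile was the 1 call among the 78 tiles of the loci, where 0.844% of 47865 tiles in the genome were called, and VBA3 the 1 call among their 16 genes, where 6.82% of 6349 genes were called. All rpd3Δ samples were below all WT samples in 16 of the 78 tiles (7.85% in the genome) and above in 2 (7.93%), and below in 3 of the 16 genes (10.2%) and above in 2 (13.2%). Of the 24 tiles of HML 23 were below 0, around a median of -0.25, and of the 24 tiles of HMR 21, around -0.23, where 49.7% of all tiles were below 0. The medians were -0.01 at MAT, -0.05 at the recombination enhancer and 0.0021 over all tiles. VBA3 stood at 0.902 of the local median in rpd3Δ and 0.892 in WT, and with the local median as the scale neither was called, with VBA3 at -0.03 (edgeR adjusted p = 0.953) and the tile at -0.43 (edgeR adjusted p = 0.708). On that scale 59 of 47865 tiles and 98 of 6349 genes in the genome were called. DESeq2 called 0 tiles and 0 genes of the loci, with VBA3 at -0.49 and the tile at -0.81 (DESeq2 adjusted p = 0.0681 and 0.0682). In the genome it called 251 of 47865 tiles and 361 of 6349 genes. The tile was lost without rpd3Δ replicate 1 or 3 or without WT replicate 1 or 2 (range -1.08 to -0.61 over all omissions), and VBA3 without rpd3Δ replicate 1 (-0.33) or WT replicate 2 (-0.35). Where the tile was lost, 508, 253, 151 and 101 tiles of the genome were called, in that order, beside 404 with all samples. Where VBA3 was lost, 450 and 238 genes were called, beside 433.

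The cassette genes at HML had less signal than the silencer-bearing intervals in every sample. HMLALPHA2 (12386 to 13018), the gene of the α2 repressor, had 6.44, 6.99 and 6.09 in the rpd3Δ samples and 10.9, 8.53 and 8.68 in the WT samples. The rpd3Δ samples were all below the WT samples (-0.52, SE 0.193, edgeR adjusted p = 0.0925). The copy at MAT, MATALPHA2, had -0.08 with overlap, so the separation at HMLALPHA2 may depend on how shared reads were placed. HMLALPHA1 (13282 to 13809), the gene of the α1 activator, had 6.79, 4.97 and 5.55 in the rpd3Δ samples and 6.95, 6.38 and 6.23 in the WT samples, with overlap (-0.17, SE 0.224, edgeR adjusted p = 0.718). The promoter between them had 3.92 ± 1.80 in rpd3Δ and 4.03 ± 1.48 in WT (SD, n = 3) and ranked 5835 and 6008 of 6078 intervals over the local median. The reference carries the α genes at MAT too, so this rank depends on how shared reads were placed. YCL068C (11503 to 12285), an open reading frame in the shared W sequence, had 12.5 ± 1.15 in rpd3Δ and 12.9 ± 1.92 in WT (-0.05, SE 0.143). The interval between it and HMLALPHA2 (12286 to 12385) had 5.93 ± 1.89 in rpd3Δ and 7.02 ± 1.64 in WT (-0.24, SE 0.402). CHA1 (15798 to 16880), the gene of a serine and threonine deaminase, had 9.24 ± 1.29 in rpd3Δ and 9.84 ± 1.60 in WT (-0.10, SE 0.144).

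The silencer side of HML, meaning the intergenic intervals that flank the cassette genes, had 2.90 ± 0.192 times the level of those genes in rpd3Δ and 2.77 ± 0.458 times in WT (SD, n = 3). The samples were 3.11, 2.82 and 2.76 in rpd3Δ and 2.43, 3.29 and 2.59 in WT, with overlap, and the exact permutation p with both sides counted was 0.6. The reference carries the α genes at MAT too, so the level of this ratio depends on how shared reads were placed.

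**Figure D2:**
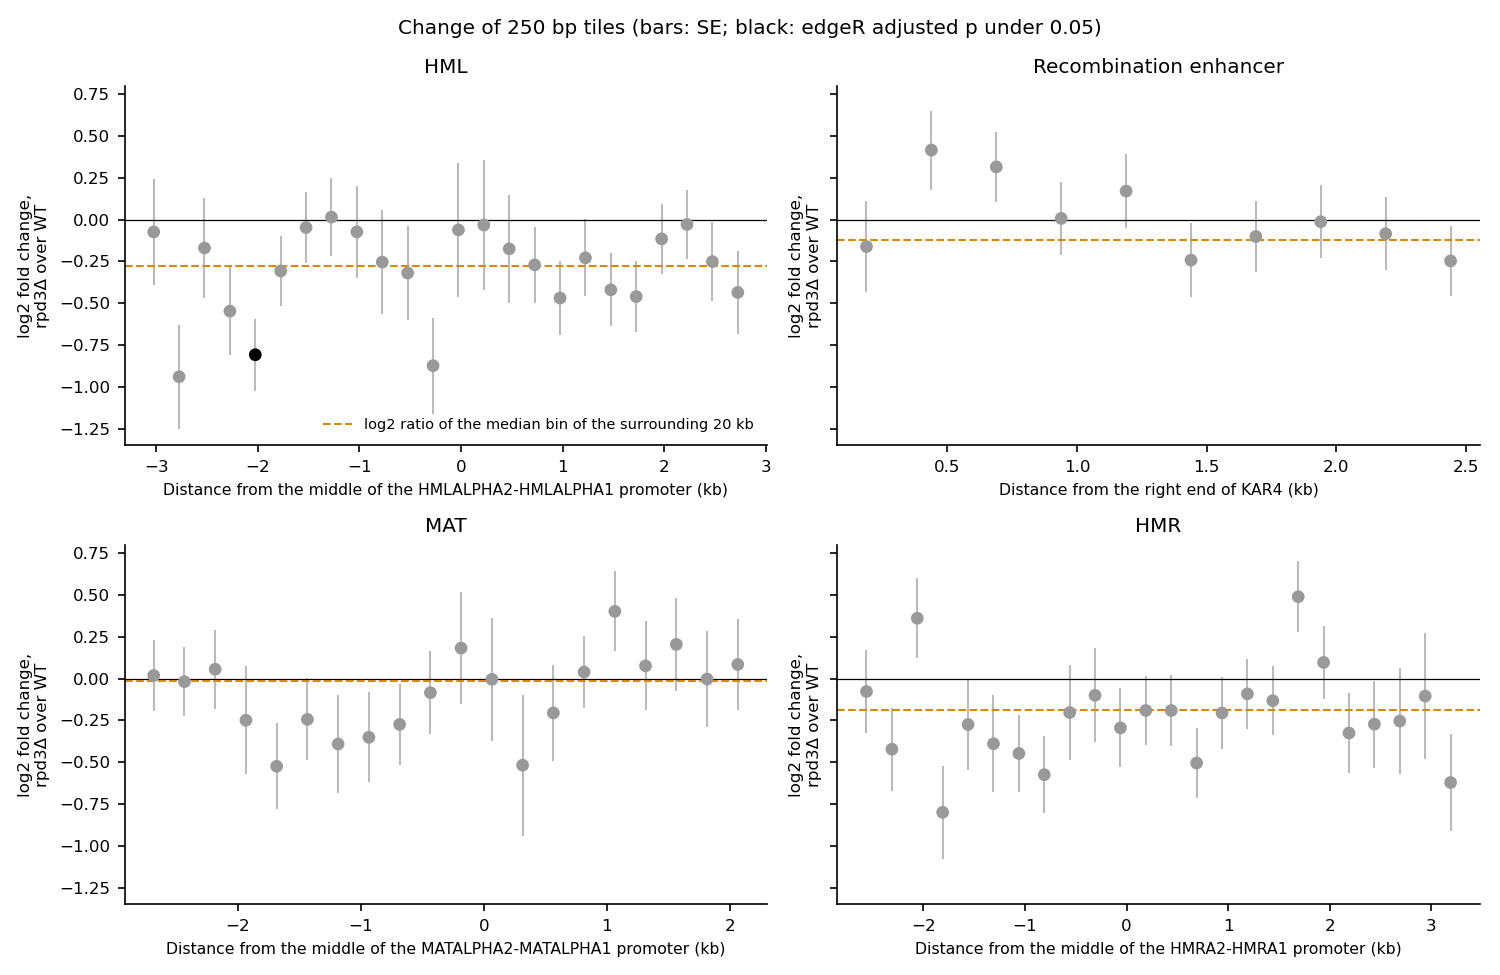
Log2 fold change, rpd3Δ over WT (y axis, bars are SE), of the 250 bp tiles of each locus against distance in kb from a gene landmark (x axis). Called tiles are black, and a dashed line marks the log2 ratio of the median bin of the surrounding 20 kb, with the locus itself included. The called tile at HML, at -0.81, is the single black point, and the dashed line lies at -0.28 at HML, -0.12 at the recombination enhancer, -0.01 at MAT and -0.19 at HMR.

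Over all 4 loci, 229 bins reached the mean of 10 counts needed for a test (67 at HML, 51 at the recombination enhancer, 42 at MAT and 69 at HMR) and 163 did not. Of these, edgeR called 0, where it called 0.482% of 88821 bins in the genome, and DESeq2 called 0, where it called 68 of 88821. At an unadjusted p under 0.05 there were 24, of which 20 were lower and 4 higher in rpd3Δ, or 11 of 67 bins at HML, 10 of 69 at HMR, 3 of 51 at the recombination enhancer and 0 of 42 at MAT, where the genome had 10.9%. The groups did not overlap in 31 bins with all rpd3Δ samples below (7.38% in the genome) and in 10 with all above (7.61%). The median log2 fold change of the tested bins was -0.28 at HML, -0.23 at HMR, 0.03 at MAT and 0.02 at the recombination enhancer, beside 0.01 over all bins tested. Among the 12 intergenic intervals of the loci edgeR called 0, where 2.3% of 6078 were called, and DESeq2 called 0, where it called 141 of 6078. At an unadjusted p under 0.05 edgeR had 1, the HML-E interval, where 15.0% of intervals in the genome passed. All rpd3Δ samples lay below all WT samples in 3 of the 12, where 10.8% of intervals did.

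At HMR the arrangement differed from HML, since the cassette gene HMRA1 had on average more signal than the intervals on its sides. HMRA1 (293835 to 294321), whose product joins α2 to repress haploid genes in diploid cells, had 29.6, 19.2 and 19.0 in the rpd3Δ samples and 30.9, 26.6 and 19.6 in the WT samples. The groups overlapped (-0.18, SE 0.155, edgeR adjusted p = 0.540). Over the local median it stood at 2.97 in rpd3Δ and 2.96 in WT, rank 89 and rank 126 of 6349 genes. The number of copies of this gene in the strains is not given, so the rank need not be that of 1 copy at HMR. The highest bin of the locus, 294251 to 294300 in HMRA1, had 22.6, 24.9 and 27.1 in the rpd3Δ samples and 39.1, 36.4 and 26.7 in the WT samples (-0.49, SE 0.270, edgeR adjusted p = 0.517).

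HMRA2 (293179 to 293538) had 6.74, 5.92 and 13.0 in the rpd3Δ samples and 11.0, 8.61 and 6.90 in the WT samples (-0.10, SE 0.250, edgeR adjusted p = 0.870). The third rpd3Δ sample was the highest of all 6 there and the other rpd3Δ samples were the lowest. The promoter between HMRA2 and HMRA1 (293539 to 293834) had 14.9, 14.7 and 13.8 in the rpd3Δ samples and 17.1, 17.9 and 21.2 in the WT samples. These did not overlap, and the log2 fold change of -0.36 (SE 0.184) did not pass the threshold (edgeR adjusted p = 0.352).

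The interval between YCR095W-A and HMRA2 (289798 to 293178), which holds the HMR-E silencer, had 7.71, 7.09 and 7.74 in the rpd3Δ samples and 9.01, 9.88 and 9.21 in the WT samples. The rpd3Δ samples were all below the WT samples (-0.32, SE 0.162, edgeR adjusted p = 0.350). Its signal was near the local median, at 0.943 in rpd3Δ and 1.05 in WT, although the interval is long and holds much more than the silencer. A low rise in it, the 3 bins from 292651 to 292800 and chosen after their values were seen, had bin means of 13.7 to 14.6 in rpd3Δ and 15.2 to 16.0 in WT. The interval between HMRA1 and the tRNA gene (294322 to 295483), which holds HMR-I, had 21.1, 16.8 and 16.4 in the rpd3Δ samples and 19.3, 21.5 and 16.4 in the WT samples, with overlap (-0.07, SE 0.163, edgeR adjusted p = 0.903). It ranked 468 in rpd3Δ and 670 in WT of 6078 intervals over the local median.

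The tRNA gene YNCC0014W (295484 to 295556) lies at the right border of HMR, where a tRNA gene is known to keep silent chromatin from spreading. Its single bin had 17.9, 14.5 and 17.6 in the rpd3Δ samples and 7.83, 11.9 and 6.35 in the WT samples. The rpd3Δ samples were all above the WT samples, with a log2 fold change of 0.85 (SE 0.389) that did not pass the threshold (edgeR adjusted p = 0.194), and it rests on 5 to 19 counts per sample. The 250 bp tile that holds this bin, 295501 to 295750, had 13.8, 15.5 and 16.5 in the rpd3Δ samples and 17.0, 13.7 and 11.7 in the WT samples. The groups overlapped in that tile (0.10, SE 0.219, edgeR adjusted p = 0.920). The tile to its left, 295251 to 295500, reaches only the first bases of the gene. That tile had 18.9, 19.1 and 22.5 in the rpd3Δ samples and 15.3, 14.0 and 13.5 in the WT samples, with no overlap (0.49, SE 0.212, edgeR adjusted p = 0.330). To the right of the tRNA gene, the interval up to GIT1 (295557 to 297048) had 8.02 ± 1.26 in rpd3Δ and 9.68 ± 0.485 in WT (-0.27, SE 0.156, edgeR adjusted p = 0.448).

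The silencer side of HMR had 0.753 ± 0.0930 times the level of HMRA1 and HMRA2 in rpd3Δ and 0.781 ± 0.152 times in WT (SD, n = 3, exact permutation p = 0.9, both sides counted). The single samples were 0.689, 0.859 and 0.710 in rpd3Δ and 0.615, 0.815 and 0.913 in WT. In every sample the HMR ratio was below 1 and the HML ratio above 2. The α genes of HML have another reference copy at MAT, and the number of HMRA1 copies in the strains is not given. Both ratios therefore depend on how shared reads were placed and on copy number. The spans are also unlike. Of the 68 bins at HMR, 44 are the part of the HMR-E interval inside the window (9.00 in rpd3Δ and 11.1 in WT). The HML-E interval has 8 of 50 bins. The HMR-I interval alone had more than the HMR cassette genes in every sample but the first WT sample. Those genes had 19.6, 13.4 and 16.3 in the rpd3Δ samples and 22.2, 18.7 and 14.1 in the WT samples.

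**Figure D3:**
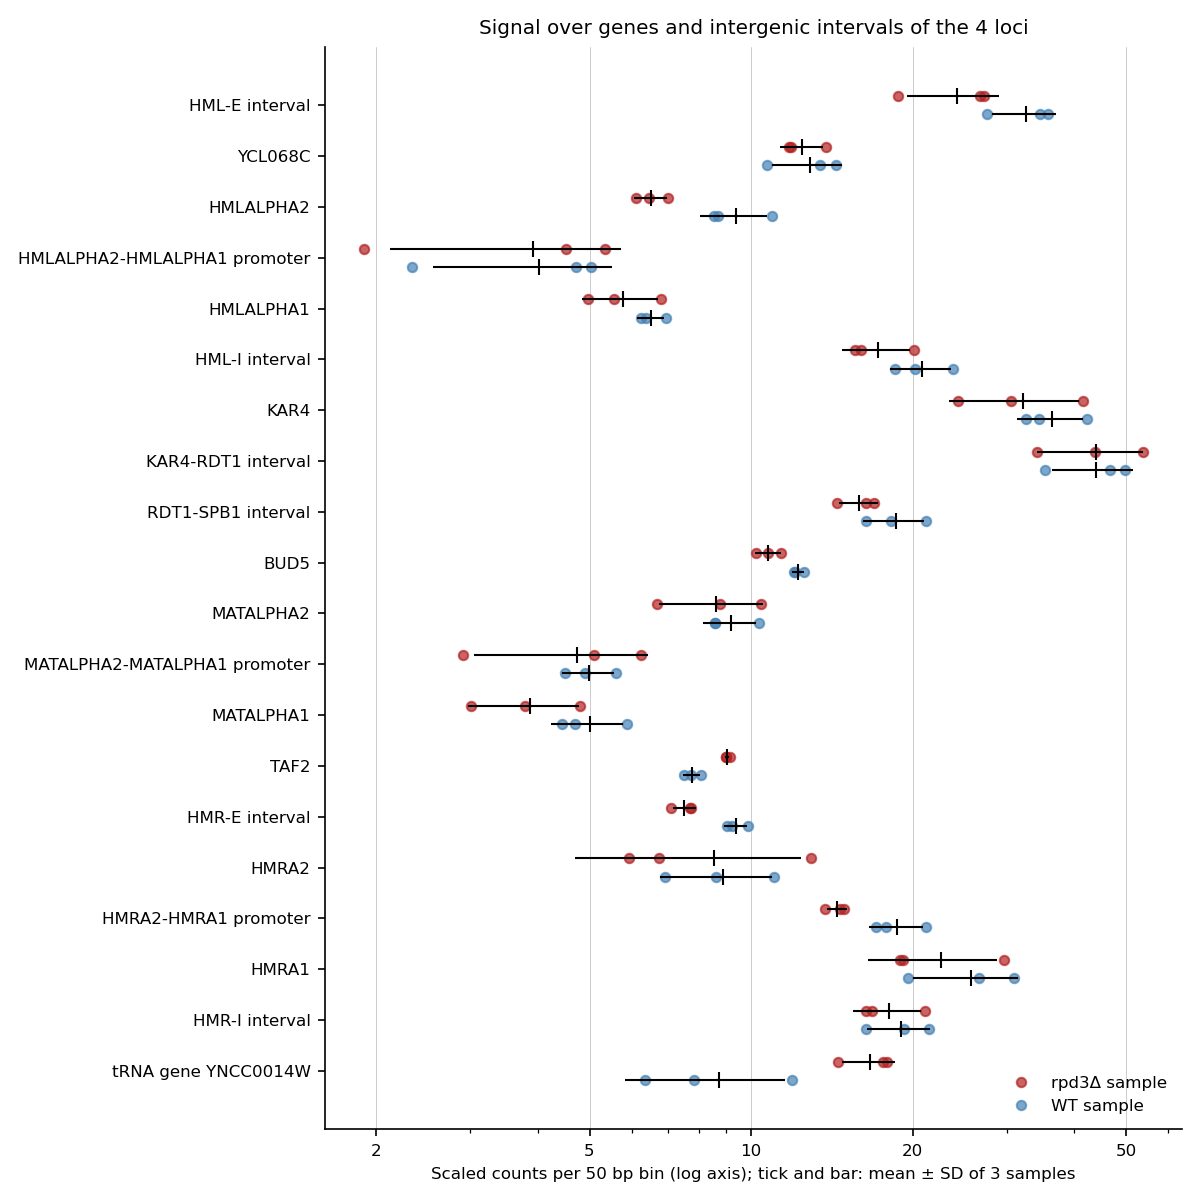
Scaled counts per 50 bp bin (x axis, log scale) of selected genes and intergenic intervals of the 4 loci, with a point for each of 3 rpd3Δ (red, above) and 3 WT (blue, below) samples and a tick and bar for mean ± SD. The KAR4 to RDT1 interval is the highest, at 43.9 in rpd3Δ and 44.0 in WT, and MATALPHA1 and the α promoters are the lowest, at about 4 to 5.

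MAT carried the lowest signal of the 4 loci and had 0 of 42 bins tested, 0 of 20 tiles, 0 of 5 genes and 0 of 2 intervals called by edgeR, against 0.482%, 0.844%, 6.82% and 2.3% in the genome. DESeq2 called 0 of each as well, beside 68 bins, 251 tiles, 361 genes and 141 intervals in the genome. At an unadjusted p under 0.05 edgeR had 0 bins, 1 tile, 1 gene and 0 intervals, where the genome had 10.9% of bins, 11.2% of tiles, 20.2% of genes and 15.0% of intervals. BUD5 (197621 to 199549), which encodes an exchange factor of bud site selection, had 11.4, 10.7 and 10.2 in the rpd3Δ samples and 12.0, 12.1 and 12.6 in the WT samples. The rpd3Δ samples were all below the WT samples (-0.18, SE 0.102, edgeR adjusted p = 0.332). TAF2 (201174 to 205397), which encodes a subunit of the general transcription factor TFIID, had 9.13, 9.00 and 8.97 in the rpd3Δ samples and 8.06, 7.73 and 7.49 in the WT samples. There the rpd3Δ samples were all above the WT samples (0.22, SE 0.0893, edgeR adjusted p = 0.137), so the genes on either side of the MAT cassette differed in opposite directions, neither past the threshold. The highest bin of MAT, 197801 to 197850 in BUD5, had 22.6, 19.7 and 23.0 in the rpd3Δ samples and 22.5, 25.2 and 22.9 in the WT samples (-0.13, SE 0.277).

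MATALPHA2 (199546 to 200178) had 6.67, 10.4 and 8.75 in the rpd3Δ samples and 8.58, 8.57 and 10.4 in the WT samples (-0.08, SE 0.185, edgeR adjusted p = 0.847). MATALPHA1 (200442 to 200969) had 4.81, 3.01 and 3.79 in the rpd3Δ samples and 5.87, 4.70 and 4.45 in the WT samples (-0.37, SE 0.255, edgeR adjusted p = 0.441). Both sets overlapped, and MATALPHA1 was among the lowest genes of the genome over the local median, at 0.465 in rpd3Δ and 0.647 in WT, rank 6322 and rank 6172 of 6349. The reference holds another copy of this gene at HML, so the rank depends on how shared reads were placed and need not be a level at MAT. The promoter between the α genes had 4.74 ± 1.69 in rpd3Δ and 5.00 ± 0.552 in WT (SD, n = 3). YCR041W (200911 to 201243), an open reading frame that overlaps MATALPHA1 and TAF2, had 15.2 ± 2.42 in rpd3Δ and 15.2 ± 2.63 in WT (-0.01, SE 0.188), and the interval between PHO87 and BUD5 had 10.2 ± 0.475 in rpd3Δ and 11.9 ± 2.11 in WT (-0.24, SE 0.193).

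The gene positions of HML and MAT differ by the same 187160 bases for ALPHA2 and for ALPHA1, so the loci were laid over each other by that offset. Where shared sequence ends was not determined, and beyond it the offset pairs unlike sequence. In ALPHA2 the ratio of HML to MAT was 0.777 ± 0.164 in rpd3Δ and 1.04 ± 0.220 in WT (SD, n = 3). It was 0.810 ± 0.211 in rpd3Δ and 0.830 ± 0.359 in WT over the promoter between the α genes. In ALPHA1 it was 1.51 ± 0.128 in rpd3Δ and 1.31 ± 0.115 in WT. Over the whole pair of α genes the ratio was 1.13, 0.843 and 0.887 in the rpd3Δ samples and 1.23, 1.10 and 0.971 in the WT samples, with overlap (exact permutation p = 0.3, both sides counted). In the 250 bp right of ALPHA1 the ratio ran from 0.529 to 1.22 over the 6 samples. In the next 250 bp, inside TAF2 at MAT, it was 0.671, 0.765 and 0.776 in the rpd3Δ samples and 1.09, 1.61 and 1.48 in the WT samples, a stretch without overlap that was noticed after the values were seen and was not tested.

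Over the silencer-bearing sides of HML the ratio was higher. The HML-E interval had 24.2 ± 4.74 in rpd3Δ and 32.6 ± 4.46 in WT. At the same offset, a stretch of BUD5 at MAT (198243 to 198662), not known here to share its sequence, had 5.70 ± 1.53 in rpd3Δ and 8.14 ± 2.51 in WT. That is a ratio of HML to MAT of 4.33 ± 0.682 in rpd3Δ and 4.34 ± 1.63 in WT. In the 250 bp that begin 1000 bp right of ALPHA1, on the HML-I side, the ratio was 3.64 ± 1.06 in rpd3Δ and 4.74 ± 0.341 in WT. YCL068C, whose aligned stretch lies in BUD5 (198663 to 199445), had a ratio of 1.55 ± 0.153 in rpd3Δ and 1.28 ± 0.327 in WT, close to that of ALPHA1.

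Relative to the median bin of chromosome III, ALPHA1 had 0.756 ± 0.124 at HML and 0.506 ± 0.117 at MAT in rpd3Δ, and 0.844 ± 0.0382 at HML and 0.647 ± 0.0897 at MAT in WT (SD, n = 3). Summed over both reference copies it had 1.26 ± 0.239 in rpd3Δ and 1.49 ± 0.128 in WT. HMRA1, the 1 reference copy of the a1 gene, had 2.97 ± 0.846 in rpd3Δ and 3.32 ± 0.694 in WT, above the ALPHA1 sum in each of the 6 samples. The number of copies of each gene in the strains is not given in the labels, so signal per copy and the number of copies cannot be told apart. HMRA2, in the shared X sequence, had 1.10 ± 0.429 in rpd3Δ and 1.14 ± 0.254 in WT, where ALPHA2 had 0.856 ± 0.107 in rpd3Δ and 1.21 ± 0.159 in WT at HML, and 1.13 ± 0.282 in rpd3Δ and 1.19 ± 0.147 in WT at MAT. Summed over HML, MAT and HMR, these genes had 2.63, 3.22 and 3.42 in the rpd3Δ samples and 3.90, 3.33 and 3.40 in the WT samples, with overlap.

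**Figure D4:**
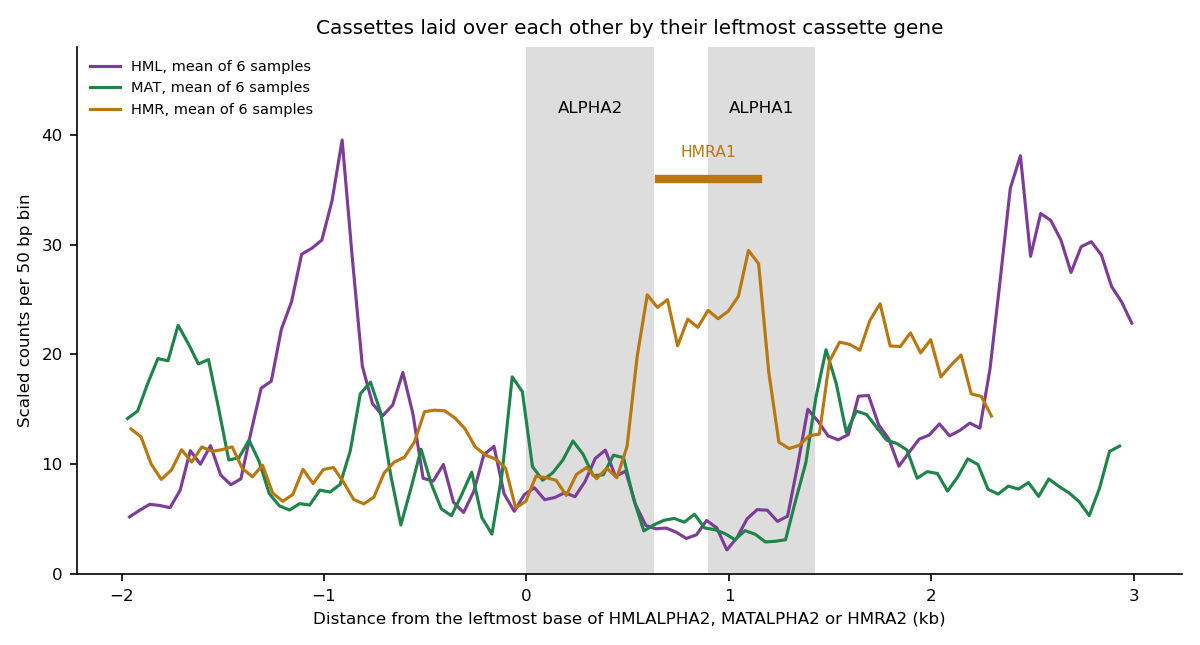
Scaled counts per 50 bp bin (y axis, mean of all 6 samples) of HML (purple), MAT (green) and HMR (orange) against distance in kb from the leftmost base of HMLALPHA2, MATALPHA2 or HMRA2 (x axis), with the α genes as grey bands and HMRA1 as an orange bar. HML and MAT run close together over the α genes and part farther out on both sides, where HML reaches 39.5, and HMR is highest over HMRA1, at 29.5.

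The recombination enhancer had 1 sharp peak at its left end, beside KAR4, and a long low part. The highest bin over all samples was 29051 to 29100, with 235, 146 and 123 scaled counts in the rpd3Δ samples and 207, 195 and 130 in the WT samples. The groups overlapped, and the first rpd3Δ sample was the highest of all 6 (log2 fold change -0.08, SE 0.285, edgeR adjusted p = 0.961). In each sample the highest bin lay between 29001 and 29150, within 250 bp of the right end of KAR4. The first 700 bp of the enhancer, from 28901 on, held 74.8%, 67.4% and 63.7% of the counts of the enhancer in the rpd3Δ samples and 72.0%, 70.7% and 61.9% in the WT samples.

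The right side of that peak was higher relative to its summit in the rpd3Δ samples. At 300 to 400 bp right of KAR4 the signal was 85.4 ± 32.8 in rpd3Δ and 72.7 ± 19.1 in WT (SD, n = 3). At 400 to 500 bp it was 101.8, 72.0 and 56.9 in the rpd3Δ samples and 60.6, 58.9 and 30.5 in the WT samples. At 500 to 600 bp the rpd3Δ samples had 59.9, 61.7 and 50.8 and the WT samples 37.7, 49.1 and 36.2, all lower than the rpd3Δ samples. At the summit, 100 to 200 bp right of KAR4, it was 160.3 ± 51.9 in rpd3Δ and 177.7 ± 45.8 in WT. The mean from 300 to 700 bp over the mean of the first 300 bp was 0.406, 0.531 and 0.485 in the rpd3Δ samples and 0.279, 0.334 and 0.309 in the WT samples. Every rpd3Δ sample was above every WT sample in this ratio, which was chosen after the values were seen and so was not tested. The 250 bp tiles there had log2 fold changes of 0.42 (29251 to 29500, SE 0.237, edgeR adjusted p = 0.520) and 0.32 (29501 to 29750, SE 0.209, edgeR adjusted p = 0.604).

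The interval between KAR4 and RDT1 (28937 to 30909) had 53.8, 43.8 and 34.2 in the rpd3Δ samples and 49.8, 46.8 and 35.4 in the WT samples. The ranges of both genotypes overlapped, and the log2 fold change was -0.0011 (SE 0.204, edgeR adjusted p = 0.999). It ranked 80 in rpd3Δ and 124 in WT of 6078 intergenic intervals over the local median, at 5.54 ± 1.48 in rpd3Δ and 5.06 ± 0.941 in WT. KAR4 (27929 to 28936), which encodes a transcription factor of the pheromone response that acts in nuclear fusion, had 41.5, 30.5 and 24.3 in the rpd3Δ samples and 34.5, 42.2 and 32.6 in the WT samples. The groups overlapped, with the first rpd3Δ sample apart from the other rpd3Δ samples, and the log2 fold change was -0.18 (SE 0.115, edgeR adjusted p = 0.394). Without that sample it was -0.41 and passed (edgeR adjusted p = 0.0106), where 450 of 6350 genes were called. Within KAR4 the signal was highest at the end facing the enhancer. The 100 bp at its right end had 82.6 ± 25.8 in rpd3Δ and 91.3 ± 15.7 in WT, and the 100 bp that end 900 bp to the left had 10.8 ± 2.78 in rpd3Δ and 15.6 ± 3.88 in WT (SD, n = 3).

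RDT1 (30910 to 30996), a short gene inside the enhancer, had 13.5 ± 2.40 in rpd3Δ and 10.3 ± 1.99 in WT from 13 to 30 counts per sample (0.36, SE 0.307, edgeR adjusted p = 0.546). The interval between RDT1 and SPB1 (30997 to 31448) had 17.0, 16.3 and 14.4 in the rpd3Δ samples and 16.4, 18.2 and 21.2 in the WT samples, with overlap (-0.21, SE 0.164, edgeR adjusted p = 0.608). SPB1 (31449 to 33974), which encodes an RNA methyltransferase of ribosome assembly, had 8.41 ± 0.908 in rpd3Δ and 7.84 ± 0.880 in WT (0.11, SE 0.111, edgeR adjusted p = 0.639). The recombination enhancer had 3.93 ± 0.589 times the level of the 5 kb on each side in rpd3Δ and 3.58 ± 0.478 times in WT (SD, n = 3, exact permutation p = 0.5, both sides counted). The samples were 4.49, 3.99 and 3.31 in rpd3Δ and 4.05, 3.60 and 3.09 in WT.

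The likeness of the profiles along the loci was measured between pairs of samples. Over the 392 bins, Spearman's rho between samples was 0.714 to 0.768 within rpd3Δ, 0.684 to 0.816 within WT and 0.618 to 0.827 between the genotypes. Between the genotypes it was 0.690 to 0.842 at HML, 0.687 to 0.838 at the recombination enhancer, 0.494 to 0.775 at MAT and 0.408 to 0.820 at HMR. Within rpd3Δ it was 0.726 to 0.775 at HML, 0.742 to 0.836 at the recombination enhancer, 0.581 to 0.707 at MAT and 0.644 to 0.694 at HMR. Within WT it was 0.787 to 0.877 at HML, 0.777 to 0.886 at the recombination enhancer, 0.463 to 0.693 at MAT and 0.536 to 0.721 at HMR. The lowest value between the genotypes was below the lowest within either of them at HML, the recombination enhancer and HMR. The highest between them was above the highest within either at MAT, at HMR and over all 392 bins. There were 9 pairs between the genotypes and 3 within each, so the range between them can be wider. Neighbouring bins share reads, so these are descriptions of the profiles.

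The genes that work on these loci or are controlled by them were read through their promoters, the 500 bp upstream of each gene. Of 35 such promoters 0 were called by edgeR, where 1.52% of 5972 promoters were called, and 0 by DESeq2, where 53 of 5972 were called. At an unadjusted p under 0.05 edgeR had 7, of which 5 were lower and 2 higher in rpd3Δ, where 13.8% of all promoters passed. The highest levels were at MFA2, AXL1, MFA1 and ASG7. MFA2, one of the a-factor genes, had 81.6, 58.2 and 46.2 in the rpd3Δ samples and 70.1, 70.0 and 58.7 in the WT samples (-0.10, SE 0.276, edgeR adjusted p = 0.926), and 5.53 ± 1.52 times the local median in rpd3Δ and 6.32 ± 0.475 times in WT (SD, n = 3). Its partner MFA1 had 43.4, 36.2 and 28.6 in the rpd3Δ samples and 40.2, 45.5 and 39.3 in the WT samples (-0.21, SE 0.238, edgeR adjusted p = 0.783). AXL1, the gene of a protease that matures a-factor, had 46.3, 29.0 and 27.6 in the rpd3Δ samples and 50.4, 48.1 and 36.5 in the WT samples (-0.39, SE 0.235, edgeR adjusted p = 0.481). ASG7, an a-specific gene of the pheromone response, had 31.9, 28.0 and 21.3 in the rpd3Δ samples and 34.8, 37.0 and 29.5 in the WT samples (-0.32, SE 0.213, edgeR adjusted p = 0.540). In each of these 4 promoters the genotypes overlapped.

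Over all promoters 60.0% of log2 fold changes were negative. By group, the median log2 fold change was -0.38 over the 8 haploid-specific promoters, of which 7 were negative, and -0.26 over the 6 a-specific ones, of which 6 were negative. It was 0.33 over the 4 α-specific ones, of which 0 were negative, 0.09 over the 9 silencing genes and -0.0054 over the 8 genes of switching and donor preference, beside -0.06 over all promoters. All rpd3Δ samples were below all WT samples at 2 promoters, STE12 and RME1 (11.7% of all promoters), and above at 1, STE3 (5.69%). STE12, the gene of the transcription factor of the pheromone response and chosen here after its values were seen, had 19.9, 12.6 and 15.2 in the rpd3Δ samples and 24.7, 25.5 and 20.8 in the WT samples. The rpd3Δ samples were all below the WT samples (-0.58, SE 0.189, edgeR adjusted p = 0.0930). Without rpd3Δ replicate 1 the promoters of STE12 (-0.78), RME1 (-0.85) and STE18 (-0.65) passed, so the count of called promoters rests on that library. In the genome 176 of 5973 promoters were then called, 154 of them lower. SAG1, the gene of the α-agglutinin and likewise chosen after its values were seen, had 10.8 ± 2.64 in rpd3Δ and 7.53 ± 1.23 in WT (SD, n = 3), with overlap (0.52, SE 0.196, edgeR adjusted p = 0.174). The promoters of HO (-0.07), FKH1 (-0.05) and MCM1 (0.00055), given as log2 fold changes, did not pass. Among the silencing genes SIR1 (-0.38, edgeR adjusted p = 0.413) and ORC1 (-0.33, edgeR adjusted p = 0.487) had the largest values, both with overlap, beside SIR2 at -0.07, SIR3 at 0.22 and SIR4 at 0.19.

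**Figure D5:**
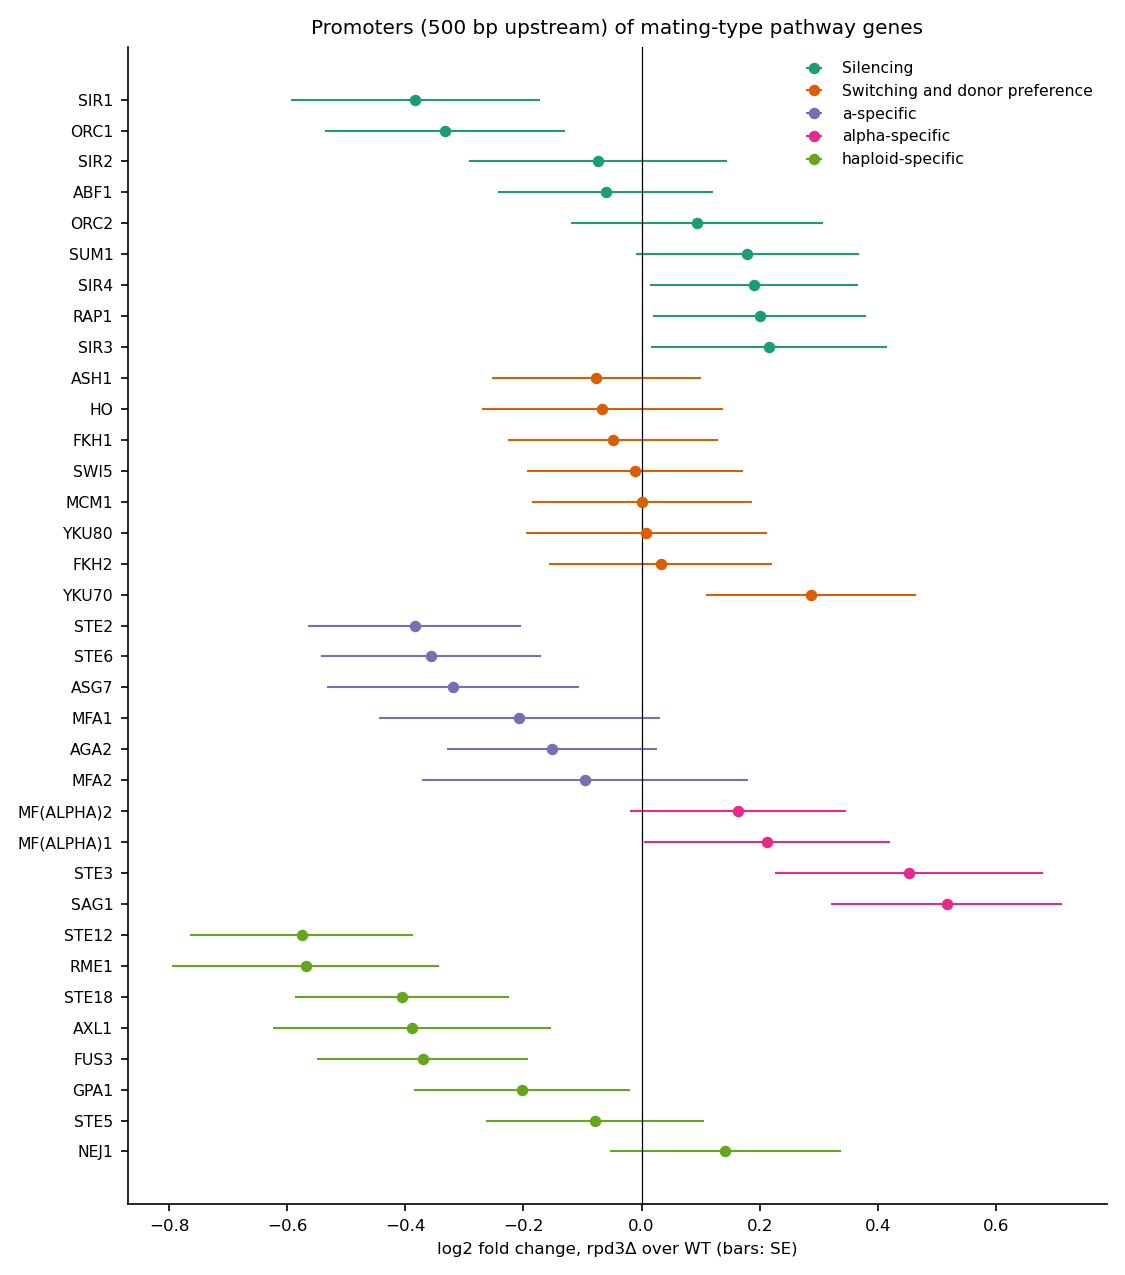
Log2 fold change, rpd3Δ over WT (x axis; bars are SE), of the 35 promoters of mating-type genes, coloured by group (y axis). The a-specific and all but 1 of the haploid-specific promoters lie left of 0 and the α-specific ones right of it, where 60.0% of all promoters are negative. The threshold is passed by 0 of the 35.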

How the data were processed

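Anti-FLAG chromatin immunoprecipitation from 3 rpd3Δ and 3 WT samples arrested in G1 was deposited as 1 table per sample, and groups and replicate numbers were taken from the labels. Per the submitters' processing notes, the authors used Bowtie2, SAMtools and bedtools with the R64 build, with versions, filters and the placing of reads with more than 1 match not given in the sources used here. Deposited values are counts of reads in each 50 bp bin and the fraction of each bin that reads cover, also as the authors deposited it, and a read that spans neighbouring bins counts in both. No input sample was analysed here.

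Counts were summed over 250 bp tiles, genes, intergenic intervals, promoters (500 bp upstream), the 4 loci and 5 kb tiles, giving a bin to a span by its midpoint. Each kind of window with a mean of at least 10 counts was fitted over the whole genome with edgeR's quasi-likelihood test (R 4.3.3, edgeR 4.0.16), without covariates, with Benjamini-Hochberg adjusted p under 0.05 as the threshold. Library sizes were set by TMM over 1192 bins of 10 kb outside the rDNA, RPD3 and BAR1. Standard errors were derived from the quasi-likelihood F statistic. Scaled counts, gene positions (RefSeq), within-sample ratios and exact permutation tests (both sides counted) came from Python 3.11.15 and scipy 1.17.1, with figures from matplotlib 3.10.9. Alternatives were other library sizes, the local background as scale, DESeq2 1.42.0, a replicate block, no count filter, omission of each sample, medians per bin and pooling of a pair of WT samples. The fits were tested on simulated data.

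The genes, intervals and loci touching the members were named, with the highest bin of each locus, bins and tiles past the threshold and, as no pathway promoter passed, the 4 with the highest level. Of the planned pathway list 1 gene is not reported here. The members, gene lists and ratios were chosen with earlier results of these data known. Depth outside the rDNA of 1856558 to 3713744 counts leaves 163 of the 392 bins below the filter, so single bins are less precise than intervals and loci.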

Additional observations from a re-analysis of the deposited data

How the results depend on the processing

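Library sizes from DESeq2 size factors or from total counts outside the rDNA, and dropping the count filter, left the number of calls at the loci as reported. Total counts with the rDNA included moved the median of all 5 kb windows to -0.51 on the log2 scale and gave 40 bins, 32 tiles, 20 genes and intervals and 19 promoters called, where 9215 of 88821 bins, 11362 of 47865 tiles, 4407 of 6349 genes, 2488 of 6078 intervals and 3093 of 5972 promoters were called in the genome, with MAT at -0.57, HMR at -0.71 and the recombination enhancer at -0.53 beside that shift. With the local background as scale 0 tiles and 0 genes or intervals were called, beside 59 tiles, 98 genes and 2 intervals in the genome. HML then had -0.030 and the recombination enhancer turned to 0.090. DESeq2 called 0 tiles and 0 genes or intervals, beside 251 tiles, 361 genes and 141 intervals in the genome, and put HMR at -0.20 past the threshold. Pooling WT replicates 1 and 2, chosen after seeing the data as were the 3 ratios over MAT, left 0 tiles and 0 genes or intervals called. It put HML at -0.27 (edgeR adjusted p = 0.0700) and the recombination enhancer at 0.037. In the genome 139 tiles, 271 genes, 30 intervals and 377 of the 2393 loci and 5 kb tiles were then called. Medians in place of means per bin turned the log2 difference of silencer side over cassette genes to -0.013 at HML and 0.032 at HMR. The cause was not tested in any of these.

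Samples of both genotypes share replicate numbers, but same-numbered samples had correlations of 0.291, -0.165 and 0.440, not every sample correlated best with its own number, and so the numbers are not taken as pairs. With the replicate block 1 promoter was called (STE12, -0.59) and HMR passed (-0.20), other calls stayed as they were, and over the genome 906 bins, 629 tiles, 581 genes, 324 intervals, 707 large windows and 189 promoters were called, beside 428, 404, 433, 140, 608 and 91 without it.

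Leaving out 1 sample at a time gave 0 to 1 tiles, 0 to 1 genes or intervals and 0 to 3 promoters called. Over the genome it gave 101 to 508 tiles, 206 to 493 genes, 18 to 304 intervals, 368 to 647 large windows and 13 to 176 promoters. Log2 fold changes were -0.38 to -0.23 for HML, -0.26 to -0.15 for HMR, -0.09 to -0.03 for MAT and -0.18 to 0.12 for the recombination enhancer. Log2 differences were -0.013 to 0.21 and -0.20 to 0.081 for silencer side over cassette genes at HML and HMR, 0.03 to 0.25 for the recombination enhancer over its flanks, -0.34 to -0.13 for the α genes of HML over MAT, -0.29 to -0.18 for HML over MAT, -0.17 to -0.10 for HMR over MAT and -0.090 to 0.16 for the recombination enhancer over MAT. Bins outside shared sequence were not analysed separately, since no genome was used here.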
